A study of Mus musculus with 6 samples.

Results

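Hypoxia response and glycolysis genes were compared between Bach2 knockout and wildtype mouse CD4 single-positive thymocytes. The set was a named list of 38 genes: the Egln prolyl hydroxylases and their partners, the hypoxia-inducible factors, genes these factors switch on, and the transporters and enzymes of glycolysis. A member was measured where the array's annotation gave exactly its symbol to a probe set, and the probe set with the highest mean stood for the gene. This found 34 of the 38, among 19938 genes tested. Of the remaining members, Gpi1, Gapdh and Eno1 were not analysed here, since no probe set carried one of them as its single symbol (25 named Gapdh among several). Ero1l was annotated under its current symbol Ero1a and is described apart from the 34.

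The 6 arrays held RNA of sorted thymocytes, 3 wildtype (Ly5.1+) and 3 Bach2 knockout (Ly5.1-), all on the C57BL/6 background and from males. Both genotypes had developed together in lethally irradiated male Rag1 knockout hosts, which make no mature T or B cells of their own and had been given equal parts of lineage-depleted marrow of each genotype. Marrow donors and hosts were 8 weeks old, and thymi were taken 2 months after transfer. By the design text each sample is from a mouse of its own, and the 3 of a genotype are biological replicates. Bach2 encodes a transcriptional repressor, and the Ly5.1 allele went together with genotype, so an effect of Bach2 and of alleles carried along with either locus cannot be told apart for linked genes. None of the 34 members was among the 150 tested genes on either side of Bach2 or of Ptprc, the gene of the Ly5.1 marker, and Egln3 is on the chromosome of neither.

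In cells with enough oxygen, prolyl hydroxylases of the Egln family mark the alpha subunits of hypoxia-inducible factors (HIF), the Vhl protein recognises the mark, and the subunits are degraded. When oxygen is short the subunits persist, pair with Arnt and bind DNA at sites with a core such as ACGTG. Their targets include glucose transporters, most glycolytic enzymes and, in a feedback loop, Egln3 and Egln1 themselves. In T cells, activation through the antigen receptor can raise Hif1a and glycolysis in normal oxygen as well.

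Values are the deposited log2 signals, so a difference of 1 is 2-fold. Levels of different probe sets are not comparable, and only differences between arrays are read. Array medians lay between 4.93 and 4.97, and arrays correlated at 0.981 to 0.991 across all probe sets, counting pairs within and between the genotypes. Bach2 gave 7.89, 8.20 and 8.05 on wildtype replicates 1 to 3, above the 6.50, 6.42 and 6.52 of the arrays labelled knockout; the labels do not describe the deletion. Of the 9 measured markers of CD4 single-positive thymocytes, 0 passed limma at an adjusted p under 0.05 over all genes. Cd4 was between 10.33 and 10.43, Cd3e between 11.39 and 11.48, and the CD4 lineage factor Zbtb7b between 8.95 and 9.13, each overlapping between the genotypes. Gata3, Klf2 and Ccr7 did not overlap and lay lower in the knockout, with differences of -0.26, -0.23 and -0.15. Of the 9 markers, 3 were thus apart and lower and 0 apart and higher, against 6.57% and 5.13% of all genes. At an unadjusted p under 0.05 (limma) there were 2, Gata3 and Klf2, against 6.91% of all genes. In RNA of sorted cells, fewer cells of a type and less RNA per cell cannot be told apart.

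Egln3 was the single member past the test. Its change was already known when the members were chosen, so its call describes these data and is no independent support. This oxygen sensor was 3.69-fold higher in the knockout, while its relatives Egln1 and Egln2, the hypoxia-inducible factors, their other targets and the glycolytic enzymes did not pass in either direction. Of the 34 members 1 was higher and 0 were lower (limma, adjusted p under 0.05 over all genes), against 0.351% of all genes tested that were higher and 0.216% that were lower (0.567% in either direction). The remaining 33 members differed by -0.41 to 0.22 on the log2 scale. Of the 34 members, 31 had a mean above 5.13, the median gene mean, and P4ha2, Hk2 and Aldoc did not. The 95% intervals of the 33 all lay within 1 log2 unit of 0, and those of 27 lay within 0.5.

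**Figure D1:**
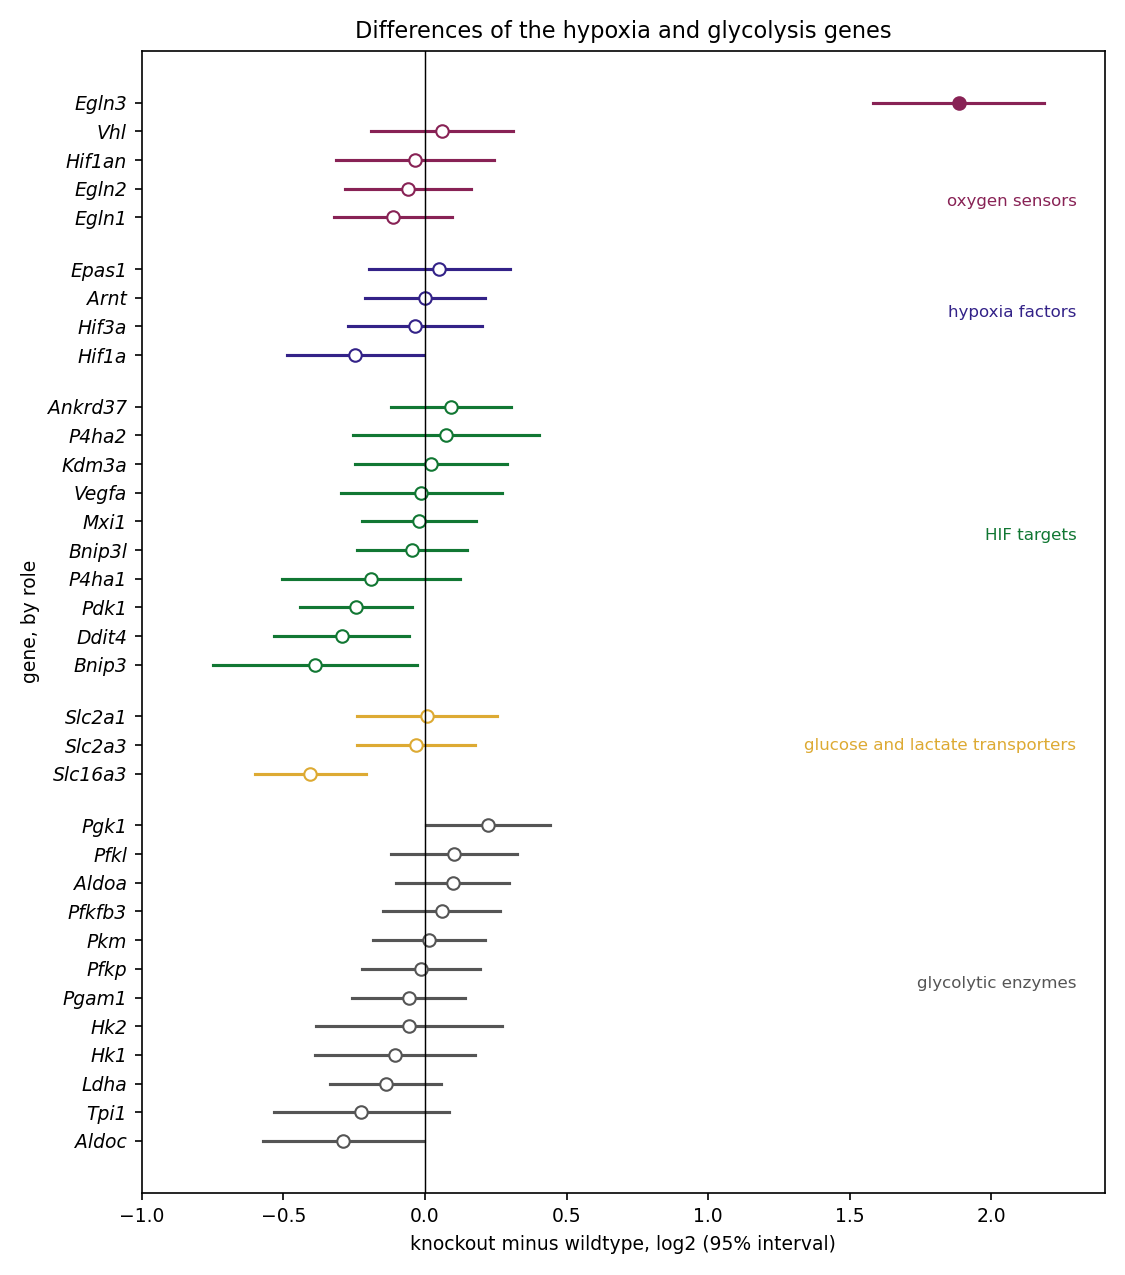
Knockout minus wildtype differences on the log2 scale (x axis) of the 34 measured genes (y axis, by role), with 95% intervals from limma over 3 arrays of each genotype; the filled point passed the test over all genes and open points did not. Egln3 lies at 1.88, and the intervals of the other 33 genes run from -0.75 to 0.44 at most.

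Egln3, a prolyl hydroxylase of HIF alpha subunits that is itself induced by HIF, gave 6.05, 6.45 and 6.35 on wildtype replicates 1 to 3, against 8.37, 8.17 and 7.97 on knockout replicates 1 to 3. Every knockout array lay above every wildtype array, with a gap several times the SD within either genotype. The means were 6.28 ± 0.21 for the wildtype and 8.17 ± 0.20 for the knockout (SD, n = 3 each), so Egln3 rose by 1.88 ± 0.14 (limma standard error; 95% interval 1.58 to 2.19; limma, adjusted p = 0.000208). Leaving out each array in turn gave differences of 1.77 to 1.98, with adjusted p between 0.000404 and 0.00271. A linear model without moderation did not call it (adjusted p = 0.223), nor did a test against a minimum difference of 1 (limma treat, adjusted p = 0.113). Without moderation 1 gene of all 19938 was called higher and 0 lower, against 70 and 43 with moderation. One probe set carried the symbol, so the value has no second probe set beside it.

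The markers of some other cells differed between the genotypes as well. The 13 markers of regulatory T cells had array means of 7.57, 8.25 and 8.25 in wildtype and of 7.15 to 7.22 in knockout cells, and within wildtype both they and Egln3 were lowest on replicate 1. Of these markers 5 fell and 1, Izumo1r, rose (limma, adjusted p under 0.05 over all genes), against 0.216% and 0.351% of all genes. At an unadjusted p under 0.05 (limma) there were 11, against 6.91% of all genes. Of the 13 differences 11 lay below 0 and 2 above. Foxp3 gave 7.30, 8.29 and 8.33 (wildtype) against 5.58, 5.36 and 5.69 (knockout). The 15 measured macrophage and monocyte markers had means of 4.44 to 4.60 in wildtype and 4.63 to 4.99 in knockout cells. Like Egln3, they were highest on knockout replicate 1 and lowest among the knockout arrays on replicate 3. Within wildtype they were lowest on replicate 2, where Egln3 was highest. Of the 15, Lyz2 rose (limma, adjusted p = 0.0256), 8 had an unadjusted p under 0.05, against 6.91% of all genes, and 10 lay at or below the median gene mean. In 5 of them, Lyz2, Lyz1, C1qa, C1qc and Fcer1g, every knockout value lay above the wildtype values, against 5.13% of all genes. Their differences were 1.39, 0.72, 0.42, 0.71 and 0.41. Mpeg1 and Itgam differed the other way, by -0.31 and -0.33. Of the 15 markers 1, Itgam, was fully apart and lower, against 6.57% of all genes. Csf1r, between 3.59 and 3.96, and Adgre1, between 2.97 and 3.21, overlapped between the genotypes. The 10 measured markers of double-positive thymocytes had means of 6.85 to 7.07 in wildtype and 7.03 to 7.94 in knockout cells. They were highest on knockout replicate 3, where Egln3 was the lowest of the knockout arrays. Within wildtype they were, like Egln3, lowest on replicate 1 and highest on replicate 2. The 7 CD8 T cell markers had means of 6.72 to 7.04 in wildtype and 6.34 to 6.62 in knockout cells. Of the 7, 0 passed the test (limma, with 5 at an unadjusted p under 0.05, against 6.91% of all genes). Eomes, Runx3, Nkg7, Gzmb and Prf1 lay lower in the knockout, with differences of -0.48 to -0.76. Cd8a and Cd8b1, which are also among the double-positive markers, differed the other way, by 0.37 and 0.13, and overlapped. The B cell, dendritic cell, natural killer cell and erythroid lists had means of 3.10 to 5.06 that overlapped between the genotypes. The part of these cells in the Egln3 result was not tested.

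**Figure D2:**
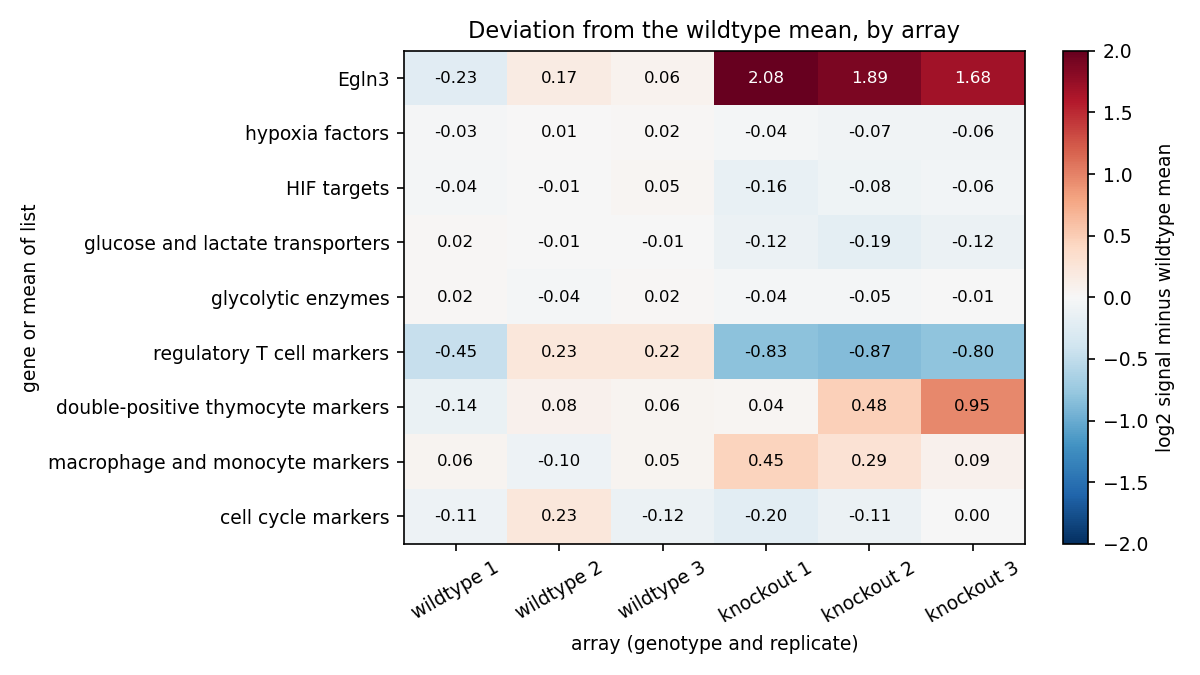
Log2 signal of Egln3 and mean log2 signal of member and marker lists (y axis) on each array (x axis), as the deviation from the wildtype mean; the numbers and the colours give the deviation. Egln3 deviates by 1.68 to 2.08 on the knockout arrays, while the lists of hypoxia factors, HIF targets, transporters and glycolytic enzymes deviate by -0.19 to 0.05 on all 6 arrays.

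The 4 other genes of oxygen sensing did not pass the test. Egln1, the main HIF prolyl hydroxylase of most cells, gave 7.93, 7.92 and 7.92 on the wildtype arrays and 7.70, 7.83 and 7.89 on the knockout arrays. These values did not overlap and were lower in the knockout, with a difference of -0.11 (95% interval -0.32 to 0.09; limma, adjusted p = 0.952). Egln2, the third prolyl hydroxylase, gave 7.72, 7.77 and 7.64 on the wildtype arrays and 7.75, 7.68 and 7.51 on the knockout arrays, which overlap, and differed by -0.06 (-0.28 to 0.16). The asparaginyl hydroxylase Hif1an, which blocks the transactivation domain of HIF alpha subunits, differed by -0.04 (-0.31 to 0.24). Vhl, the substrate-recognition subunit of the ubiquitin ligase that takes up hydroxylated HIF, differed by 0.06 (-0.19 to 0.31). In both of these genes replicate 1 was the lowest array of its genotype, and the genotypes overlapped.

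**Figure D3:**
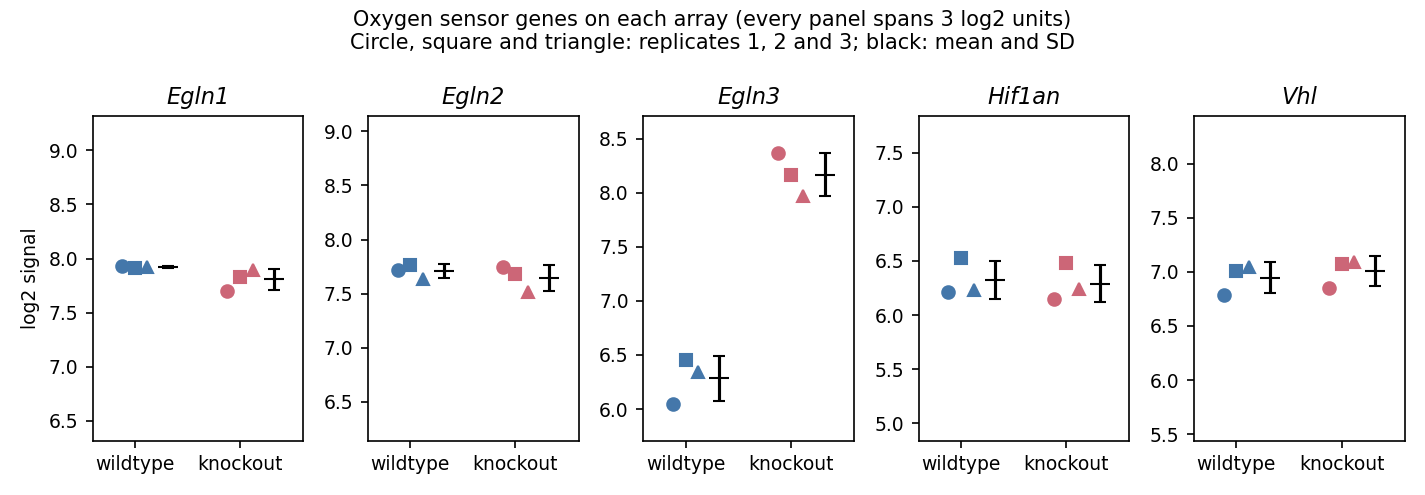
Log2 signal (y axis) of the 5 oxygen sensor genes on each of the 3 wildtype and 3 knockout arrays (x axis); circle, square and triangle are replicates 1, 2 and 3, and the black bar is the mean with its SD. Egln3 is at 7.97 or more on the knockout arrays and at 6.45 or less on the wildtype arrays, whereas the genotypes differ by at most 0.11 in the means of the other 4 genes.

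The sequences upstream of 4 members are shown so that the gene that rose can be set beside its relative Egln1 and beside the uncalled members with the smallest p in each direction, Slc16a3 (lower) and Pgk1 (higher). They are the 250 bases before the start site in RefSeq on build GRCm38.p6, 5′ to 3′ on the strand of the gene. Capitals mark the HIF core in the form ACGTG or its reverse complement CACGT, part of which can also be an E-box (CACGTG). Other forms of the core, such as GCGTG, were not searched or marked.
Egln3 (chr12:54203875-54204124, minus strand): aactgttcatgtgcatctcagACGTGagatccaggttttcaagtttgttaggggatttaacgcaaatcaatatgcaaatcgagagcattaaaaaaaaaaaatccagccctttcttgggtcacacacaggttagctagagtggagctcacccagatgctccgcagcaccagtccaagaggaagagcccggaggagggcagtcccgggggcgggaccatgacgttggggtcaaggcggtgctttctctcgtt
Egln1 (chr8:124949255-124949504, minus strand): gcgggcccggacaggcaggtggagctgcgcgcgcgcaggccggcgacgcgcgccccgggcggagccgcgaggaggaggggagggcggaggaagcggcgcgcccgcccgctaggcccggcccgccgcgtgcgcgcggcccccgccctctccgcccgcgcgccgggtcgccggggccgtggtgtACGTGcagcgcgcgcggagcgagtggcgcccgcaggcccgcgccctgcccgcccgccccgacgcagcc
Slc16a3 (chr11:120948817-120949066, plus strand): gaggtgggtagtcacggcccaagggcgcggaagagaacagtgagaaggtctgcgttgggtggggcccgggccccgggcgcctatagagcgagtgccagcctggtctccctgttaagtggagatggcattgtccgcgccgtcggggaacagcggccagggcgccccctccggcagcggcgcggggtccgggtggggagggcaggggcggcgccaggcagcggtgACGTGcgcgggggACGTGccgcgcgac
Pgk1 (chrX:106186850-106187099, plus strand): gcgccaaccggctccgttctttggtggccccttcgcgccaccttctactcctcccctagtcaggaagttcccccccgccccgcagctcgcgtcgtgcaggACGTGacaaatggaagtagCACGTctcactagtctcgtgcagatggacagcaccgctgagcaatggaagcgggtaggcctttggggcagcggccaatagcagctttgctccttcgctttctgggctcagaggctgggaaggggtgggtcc
Egln3 held 1 match, which began 229 bases before the start. Egln1 held 1 at 68 bases, Slc16a3 held 2 at 27 and 14 bases, and Pgk1 held 2, at 150 bases on the gene's strand and at 131 bases on the opposite strand. So the letters were present upstream of the gene that rose and upstream of the genes that did not pass.

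Upstream sequences were found for 31 of the 34 members, some with several start sites. At least 1 of them held ACGTG on either strand in 20 members (64.5%), against 18.5% of 27018 genes and 16.6% of 32841 promoters of the same length, with base composition not matched. The letters TGAGTCA on either strand, a core shared by Bach and AP-1 factors, stood before 2 members, Aldoa and Kdm3a (6.5%), against 5.2% of genes, and not in the 250 bases before Egln3. Neither Aldoa nor Kdm3a passed the test. A match is a description of the letters and not of binding.

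Among the hypoxia factors, Hif1a, the oxygen-regulated alpha subunit that is prominent in activated T cells, gave 7.90, 8.24 and 8.01 on the wildtype arrays and 7.81, 7.78 and 7.82 on the knockout arrays. The knockout values lay close together and below all wildtype values. The difference of -0.25 (95% interval -0.49 to -0.01) did not pass over all genes (limma, adjusted p = 0.701) and was -0.15 without wildtype replicate 2. The 19 measured cell cycle genes were also highest on that array (mean 6.95, against 6.52 to 6.72 on the others). Whether cell cycling has a part in the Hif1a difference was not tested. Epas1, which encodes HIF-2alpha, gave 5.90, 5.79 and 6.16 on the wildtype arrays and 6.00, 6.00 and 6.01 on the knockout arrays, with a difference of 0.05. Arnt, the shared beta subunit, differed by 0.00 (-0.21 to 0.21), and Hif3a, an alpha subunit with forms that restrain the others, differed by -0.03. The means of the 4 factor genes by array were 6.76 to 6.80 in wildtype and 6.71 to 6.75 in knockout cells.

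Of the 10 measured HIF targets outside glycolysis 0 passed (limma; 3 at an unadjusted p under 0.05, each lower in the knockout, where 6.91% of all genes had such a p). Ddit4, which restrains the growth kinase complex mTORC1 under stress, gave 8.32, 8.09 and 8.06 on the wildtype arrays and 7.92, 7.74 and 7.92 on the knockout arrays, with no overlap. Its difference was -0.29 ± 0.11 (limma standard error; adjusted p = 0.536). Pdk1, the kinase that keeps pyruvate out of the mitochondrial pyruvate dehydrogenase reaction, gave 8.54, 8.61 and 8.60 on the wildtype arrays and 8.31, 8.32 and 8.39 on the knockout arrays. The groups again did not overlap, with SDs of 0.04 in each genotype, and the difference was -0.24 ± 0.09 (limma, adjusted p = 0.544). Bnip3, a mitophagy receptor, gave 5.69, 5.89 and 5.99 on the wildtype arrays and 5.08, 5.72 and 5.62 on the knockout arrays. Here the groups overlapped and knockout replicate 1 lay lowest: the difference was -0.39 with all arrays and -0.19 without that one. The second probe set of Bnip3 gave -0.34.

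The other 7 targets were closer to 0. The prolyl 4-hydroxylases of collagen differed by -0.19 (P4ha1) and 0.08 (P4ha2), and the histone demethylase Kdm3a differed by 0.02. Vegfa, the vascular growth factor that is a classic HIF target, ran from 5.57 to 5.92 in wildtype and from 5.53 to 5.89 in knockout cells and differed by -0.01 (95% interval -0.30 to 0.27). Ankrd37 differed by 0.09, the mitophagy receptor Bnip3l by -0.05 and the Myc antagonist Mxi1 by -0.02. Ero1a, the endoplasmic reticulum oxidase listed as Ero1l, gave 7.44, 7.53 and 7.51 on the wildtype arrays and 7.39, 7.59 and 7.66 on the knockout arrays, a difference of 0.05 (limma, adjusted p = 0.993). Over the 10 targets the median difference was -0.03, against -0.01 over all genes tested, and 7 of the 10 lay below 0. Their mean by array was 7.08 to 7.16 in wildtype and 6.96 to 7.05 in knockout cells, lower in the knockout and apart by a small gap. This mean takes in Bnip3, Ddit4, Pdk1 and P4ha1, at -0.39, -0.29, -0.24 and -0.19. The other targets lay between -0.05 and 0.09, and no test of the mean was made.

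**Figure D4:**
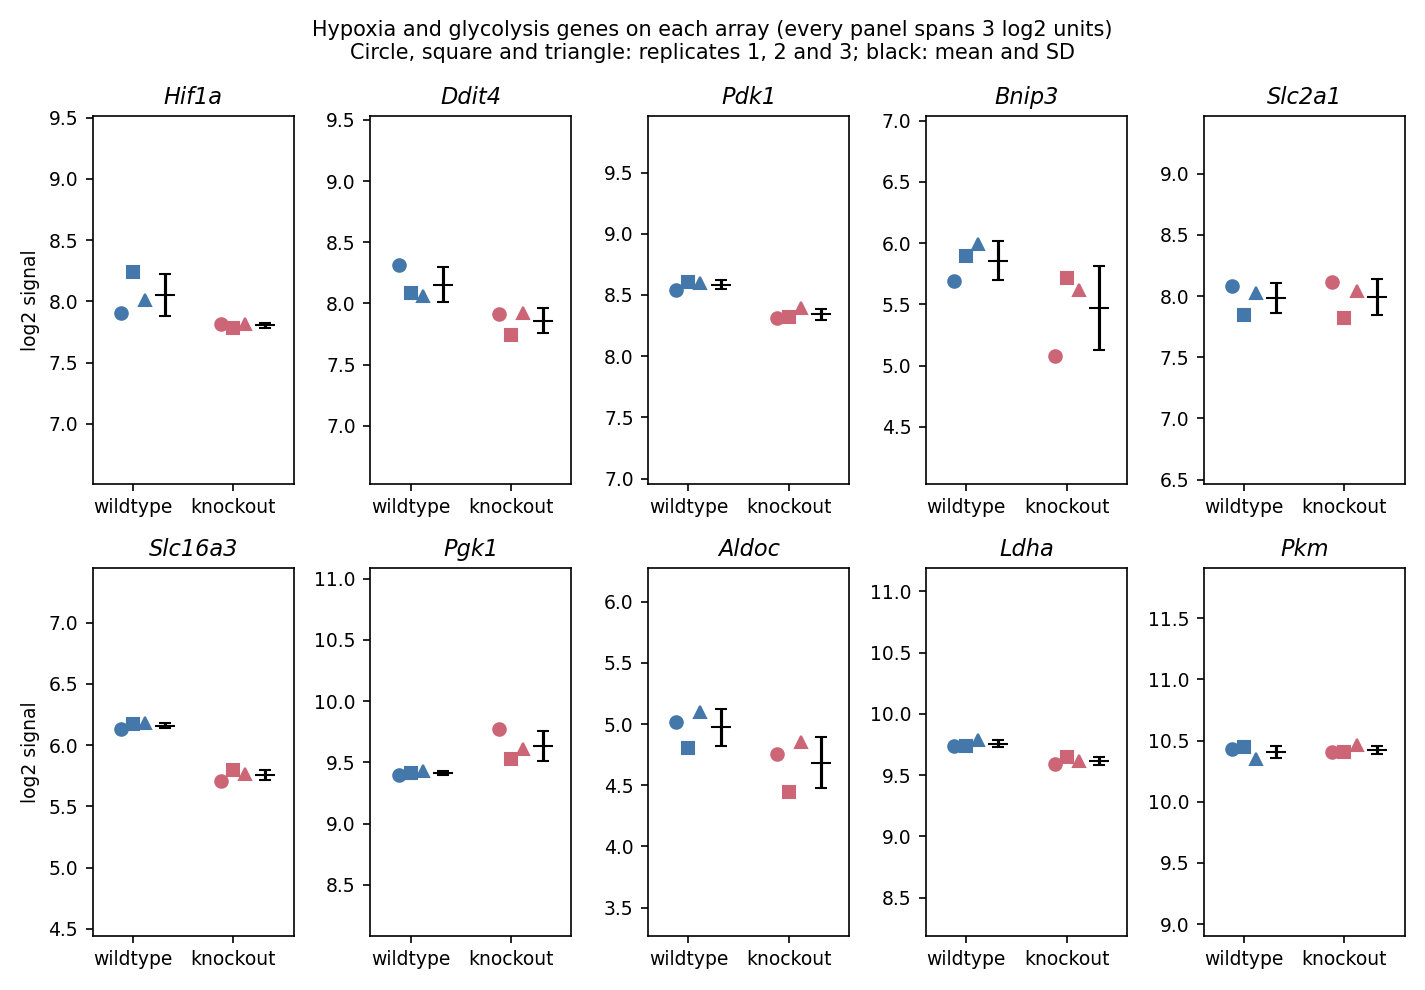
Log2 signal (y axis) of 10 hypoxia and glycolysis genes on each of the 3 wildtype and 3 knockout arrays (x axis); circle, square and triangle are replicates 1, 2 and 3, and the black bar is the mean with its SD. The genotypes do not overlap in Hif1a, Ddit4, Pdk1, Slc16a3, Pgk1 and Ldha, with differences between -0.41 and 0.22, and overlap in Bnip3, Slc2a1, Aldoc and Pkm.

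Of the transporters, the lactate exporter Slc16a3 (also called MCT4) lay nearest to the threshold. It gave 6.13, 6.17 and 6.18 on the wildtype arrays and 5.71, 5.79 and 5.76 on the knockout arrays, with means of 6.16 ± 0.02 and 5.75 ± 0.04 (SD, n = 3 each). Both genotypes were tight and well apart, and the difference was -0.41 ± 0.09 (limma standard error; 95% interval -0.60 to -0.21; adjusted p = 0.105). With dim genes left out of the fit it passed (limma, adjusted p = 0.0436), and over its other alternatives, leave-one-out fits included, the adjusted p ran from 0.0701 to 0.375. The glucose importers showed no such gap: Slc2a1 (GLUT1), which activated T cells induce, gave 8.08, 7.85 and 8.02 on the wildtype arrays and 8.11, 7.83 and 8.04 on the knockout arrays, a difference of 0.01 (-0.24 to 0.26). Slc2a3 (GLUT3) gave 7.08, 7.18 and 6.98 on the wildtype arrays and 7.05, 7.03 and 7.06 on the knockout arrays, a difference of -0.03 (-0.24 to 0.18). The mean of the 3 transporters, which takes in Slc16a3, was 7.06 to 7.10 on the wildtype and 6.88 to 6.96 on the knockout arrays, also apart.

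The glycolytic enzymes differed by -0.29 to 0.22 between the genotypes. Of 12 measured, 0 passed (limma; 2 at an unadjusted p under 0.05, 1 higher and 1 lower, against 6.91% of all genes), 5 lay above 0 and 7 below, and their median difference was -0.04. By array their mean was 8.05 to 8.10 in wildtype and 8.04 to 8.07 in knockout cells, which overlap. In the upper part of the pathway, the hexokinases Hk1 and Hk2, which trap glucose as its phosphate, differed by -0.11 and -0.06. The phosphofructokinase subunits Pfkl and Pfkp differed by 0.10 and -0.01, and Pfkfb3, which makes the activator of phosphofructokinase, by 0.06. The aldolases differed by 0.10 (Aldoa) and -0.29 (Aldoc), and triose phosphate isomerase, Tpi1, by -0.22, or by -0.08 without wildtype replicate 3 and -0.15 without knockout replicate 2. Aldoc gave 5.02, 4.81 and 5.10 on the wildtype arrays and 4.75, 4.45 and 4.85 on the knockout arrays (limma, adjusted p = 0.716), which overlap and are among the dim signals of these arrays, and it differed by -0.17 without knockout replicate 2.

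In the lower part, phosphoglycerate kinase, Pgk1, which makes the first ATP gained in glycolysis, gave 9.40, 9.41 and 9.43 on the wildtype arrays and 9.77, 9.52 and 9.61 on the knockout arrays. Every knockout value lay above the wildtype values, highest on replicate 1. The difference was 0.22 ± 0.10 (limma, adjusted p = 0.711), and 0.15 without knockout replicate 1. The other probe sets of Pgk1 gave 0.22 and 0.23, the former with values identical to the one used. Lactate dehydrogenase A, Ldha, which turns pyruvate into lactate, gave 9.74, 9.74 and 9.79 on the wildtype arrays and 9.59, 9.65 and 9.61 on the knockout arrays. That gap of -0.14 (95% interval -0.33 to 0.06) was without overlap, and Ldha had the smallest spread within genotypes of all 34 members (pooled SD 0.03). Pgam1 differed by -0.06 and the pyruvate kinase Pkm by 0.01 (-0.18 to 0.21).

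The value of Hk1 is uncertain. The probe set with the highest mean, at 10.20 to 10.61 over the 6 arrays, lists 1 accession, and a further 16 probe sets list Hk1 together with the ribosomal protein gene Rpl17. The other probe set with Hk1 as its only symbol lists 8 accessions, lay at 7.70 to 7.99 and differed by -0.04. Probe sets of Pgk1, Pgam1, Pkm, Bnip3 and Bnip3l with the same symbol may bind cDNA of related gene copies too, though their differences had the same sign within each gene.

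Over the whole set, the values of the genotypes were fully apart in 10 of the 34 members (29.4%), 3 higher and 7 lower, against 11.7% of all genes. The 3 higher were Egln3, Aldoa and Pgk1, and the 7 lower were Egln1, Hif1a, Bnip3l, Ddit4, Pdk1, Slc16a3 and Ldha. At an unadjusted p under 0.05 (limma) there were 8 members (23.5%), against 6.91% of all genes: Egln3 and Pgk1 higher, and Hif1a, Bnip3, Ddit4, Pdk1, Slc16a3 and Aldoc lower. Both shares are above those of all genes, and without Egln3 they were 27.3% and 21.2%. However, 31 of the 34 members lay above the median gene mean, and no share over genes of like signal was taken. With dim genes left out, 85 genes were called higher and 61 lower of 9969, against 70 and 43 of all 19938. The members were not drawn at random and share pathways, so no test was made of these shares. Of the 33 members besides Egln3, 21 differences lay below 0 and 11 above, and their median was -0.03 against -0.01 over all genes. The spread within genotypes was not wide for this set, with a median pooled SD of 0.11 against 0.13 over all genes. It ran from 0.03 for Ldha to 0.27 for Bnip3.

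Further genes of the same pathways were taken from 3 lists that do not hold the members. Of 22 measured further glycolysis genes, 39 further hypoxia response genes and 27 genes of pyruvate use, the citric acid cycle and respiration, 0 passed (limma). At an unadjusted p under 0.05 (limma) there were 3, 1 and 0 of them, where 6.91% of all genes had such a p. The genotypes were fully apart, with the knockout higher, in 1, 2 and 1 of them, against 5.13% of all genes. They were apart with the knockout lower in 2, 1 and 1, against 6.57%. The 3 lists had median differences of -0.07, -0.05 and 0.00, and Pfkfb4 is in the first and the second of the lists. Eno3, an enolase best known from muscle, gave 7.09, 7.27 and 7.09 on the wildtype arrays and 6.82, 6.39 and 6.57 on the knockout arrays, which do not overlap. It differed by -0.55 ± 0.12 (limma, adjusted p = 0.116), and the phosphoglucomutase gene Pgm2, also without overlap, by -0.47 (limma, adjusted p = 0.265). The third of that list at an unadjusted p under 0.05, Slc16a1, a transporter of lactate and pyruvate, gave 6.17, 6.03 and 5.93 on the wildtype arrays and 6.38, 6.32 and 6.26 on the knockout arrays. These do not overlap and lie higher in the knockout, by 0.28 (limma, adjusted p = 0.529), opposite in sign to Slc16a3. Anxa2, a membrane-binding annexin, gave 6.00, 6.68 and 6.37 on the wildtype arrays and 6.86, 6.81 and 7.02 on the knockout arrays. Its difference was 0.54 (limma, adjusted p = 0.314), and Wsb1 differed by 0.23. Neither Anxa2 nor Wsb1 overlapped between the genotypes. In the third list Pdha1, a subunit of the pyruvate dehydrogenase that Pdk1 inhibits, differed by -0.20 and the citric acid cycle enzyme subunit Idh3b by 0.19. Pdha1 and Idh3b did not overlap either. Of the HIF targets outside the members, the carbonic anhydrase Car9 differed by -0.02, Ndrg1 by -0.05, Adm by -0.23 and Bhlhe40 by -0.25. Car9, Ndrg1, Adm and Bhlhe40 overlapped between the genotypes, and Car9 and Adm lay below the median gene mean. In the whole list of further hypoxia response genes 27 differences lay below 0 and 12 above.

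**Figure D5:**
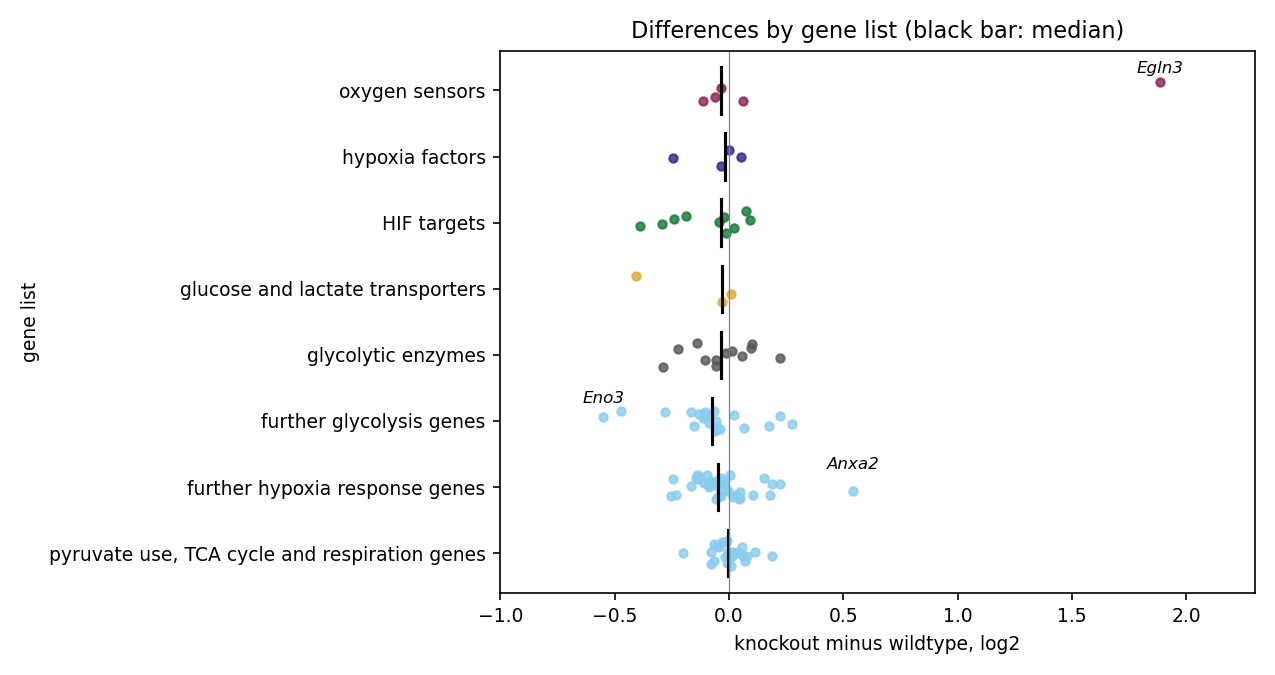
Knockout minus wildtype difference on the log2 scale (x axis) of each gene (points) in the 5 member lists and the 3 lists of further pathway genes (y axis); points are spread vertically for sight only, and black bars are medians. Medians lie between -0.07 and 0.00, and Egln3, at 1.88, stands far from all others, the next of which are Eno3 at -0.55 and Anxa2 at 0.54.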

How the data were processed

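RNA of 6 samples was hybridised to arrays with biotin-labelled cDNA, per the labels' protocols. The values the authors deposited are on a log2 scale, read from their range of 1.10 to 13.2 and array medians near 4.9; the submitters' processing notes name RMA and Partek, without versions. No genome build is named. RMA gives all arrays a common distribution, which hides any change common to all genes, and the number of arrays limits the precision.

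Of 35556 probe sets, 21789 had 1 symbol in the platform annotation, 1621 several and 12146 none listed. Those with 1 symbol were kept, with the highest-mean probe set per gene. Knockout minus wildtype was fitted with limma 3.58.1 (lmFit, eBayes, two-sided) in R 4.3.3, adjusted by Benjamini-Hochberg over all 19938 genes, threshold 0.05. The procedure was tested on simulated data. Members and lists were chosen with earlier results of these data known, the change of Egln3 among them. Every member is named with its difference; array values are given for members past the threshold, the 2 with the smallest p in each role, Egln1, Egln2, Hif1a, Slc2a1 and Ldha; Gapdh had no single-symbol probe set. Those of Bnip3, Vegfa, Ero1a, Eno3 and Anxa2 beyond that rule were chosen after their values were seen. The 2 smallest p of each further list are named, and Slc16a1, Car9, Ndrg1, Adm and Bhlhe40 were added after their values were seen. Replicate numbers were not taken to pair the arrays. Figures used matplotlib 3.10.9.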

Additional observations from a re-analysis of the deposited data

How the results depend on the processing

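The rise of Egln3 kept its direction under 17 alternatives and its call under 15 of them, with adjusted p of 1.48e-05 to 0.0174 where it was kept. Its difference of 1.88 lost the call against a minimum difference of 1 (limma treat, adjusted p = 0.113). The call was also lost without moderation (limma's linear model, adjusted p = 0.223), where 0 members and 1 of all genes were higher. Without dim genes 1 member was lower, Slc16a3 at -0.41 (limma, adjusted p = 0.0436). The counts of members called and of further pathway genes called did not move under any other alternative run. The median difference of the glycolytic enzymes was 0.00017 without dim genes and -0.0020 with array weights, and -0.059 to 0.0020 when each array was left out; that of the HIF targets was -0.087 to -0.029. Differences near 0 changed sign for up to 6 of the 34 members in a single alternative, none of them over 0.076 with all arrays.

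With the replicate number as a block, Egln3 differed by 1.88 (limma, adjusted p = 0.001) and no other member passed. Same-numbered arrays deviated together with r of 0.21, 0.11 and -0.07 across genes for numbers 1, 2 and 3. Arrays of different numbers gave r of -0.26 to 0.17. The numbers were not taken to pair the arrays, though these values do not settle it. The block moved the calls over all genes from 70 higher and 43 lower to 79 and 55.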
